A study of Mus musculus with 32 samples.

Results

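Glutathione transferases and the genes controlled by the oxidant-responsive factor NRF2 were measured as messenger RNA in mouse liver, in wildtype (WT) mice and in mice without Cyp2b9, Cyp2b10 and Cyp2b13 (Cyp2b-null). The members were chosen by symbol: every row of the count tables named Gst plus a class letter and a number, pseudogenes left out, with the membrane transferases Mgst1, Mgst2 and Mgst3 and a set of glutathione, thioredoxin, peroxide and NRF2 genes. There were 45 members among 41585 gene rows. Both sexes of both genotypes ate a normal diet (ND) or a high fat diet that lacked choline and took its protein from defined L-amino acids (CDAHFD, 62% fat and 0.1% methionine). Feeding lasted 8 weeks and began when the C57BL/6J mice were 10 weeks old. Each of the 8 groups had 4 libraries, 32 in all: ND-fed WT females, CDAHFD-fed WT females, ND-fed Cyp2b-null females, CDAHFD-fed Cyp2b-null females, and the same 4 groups in males. The WT mice were bought from a supplier, while the Cyp2b-null mice came from 1 line made with CRISPR/Cas9, so source and genotype cannot be told apart. The labels do not say that the libraries of a group came from separate mice, so the p-values measure the spread between these libraries. Females and males stood in separate count tables, and sex and table cannot be told apart.

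Glutathione transferases join the tripeptide glutathione to reactive, electron-poor compounds, which are then exported from the cell. The soluble enzymes fall into classes named by Greek letters, of which alpha, mu and pi are abundant in liver; the membrane enzymes form a family of their own. NRF2, encoded by Nfe2l2, is held in the cytoplasm by KEAP1 and degraded until electrophiles or oxidants modify KEAP1. Freed NRF2 then binds antioxidant response elements together with a small MAF protein, at sites that BACH1 can occupy and repress. Its classical targets in liver are Nqo1, Gclc, Gclm, Srxn1, Txnrd1, Slc7a11, Hmox1 and several Gst genes. Some of them also answer to other signals: Hmox1 to heme, and Slc7a11 to amino acid shortage through ATF4.

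The sequences before 4 start sites are shown because they hold the letters these factors are known to recognize: Slc7a11, with the largest mean rise on CDAHFD, Gsta3 and Txnrd1, the members with the long antioxidant element, and Gclm, a classical target with the short one. They are RefSeq promoters of build GRCm38.p6, 250 bases up to the start site, read on the gene's strand. Capitals mark the matches to the motifs searched on both strands, TGACNNNGC (core antioxidant response element), the same letters followed by A (the longer form, which contains the core) and TGATGNAA (amino acid response element).
Slc7a11, chr3:50443614-50443863, minus strand: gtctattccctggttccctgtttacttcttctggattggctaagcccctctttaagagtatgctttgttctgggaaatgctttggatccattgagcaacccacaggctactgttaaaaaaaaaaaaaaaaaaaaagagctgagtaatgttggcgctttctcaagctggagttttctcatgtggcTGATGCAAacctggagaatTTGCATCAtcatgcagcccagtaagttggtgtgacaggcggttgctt
Gsta3, chr1:21240335-21240584, plus strand: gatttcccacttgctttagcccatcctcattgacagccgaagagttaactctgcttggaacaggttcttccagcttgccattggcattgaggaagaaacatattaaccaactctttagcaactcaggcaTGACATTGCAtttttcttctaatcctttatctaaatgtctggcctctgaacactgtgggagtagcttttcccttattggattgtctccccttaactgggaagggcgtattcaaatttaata
Txnrd1, chr10:82858956-82859205, plus strand: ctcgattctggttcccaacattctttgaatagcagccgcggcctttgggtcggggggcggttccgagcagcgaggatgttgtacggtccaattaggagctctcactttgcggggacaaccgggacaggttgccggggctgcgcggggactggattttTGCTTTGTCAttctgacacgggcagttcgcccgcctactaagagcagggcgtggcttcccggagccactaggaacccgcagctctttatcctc
Gclm, chr3:122245307-122245556, plus strand: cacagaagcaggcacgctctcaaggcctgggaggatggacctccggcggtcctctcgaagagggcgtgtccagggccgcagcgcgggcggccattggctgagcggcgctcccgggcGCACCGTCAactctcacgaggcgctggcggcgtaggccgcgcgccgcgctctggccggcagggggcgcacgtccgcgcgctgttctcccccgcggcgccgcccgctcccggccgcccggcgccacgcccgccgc
RefSeq promoters of 300 bases, 250 before and 50 after the start, were matched for 40 of the 45 members, with 54 start sites; Gclc, Gsr, Gsta4, Gstt2 and Hmox1 had no entry. The core element was found in 9 of the 54 member promoters (16.7%), against 12.4% of all 32851 promoters. The longer form was found in 2 of 54 (3.7%), against 3.04% of all. The Gsta3 match began 121 bases before the start site on the gene's own strand, and the Txnrd1 match 93 bases before it on the opposite strand. The other members with a core match were Nfe2l2, Srxn1, Gstm5, Gstm7, Gclm, Mgst1 and Sod1. TGATGNAA was found in 1 of 54 member promoters (1.85%), against 3.97% of all, and the Slc7a11 promoter held it on both strands, 66 and 47 bases before the start site. A match is a run of letters in these windows and was not tested for binding.

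Several transferases lie in clusters of related genes, given here on GRCm38.p6 as the GENCODE annotation places them. The mu genes share 1 stretch of chromosome 3, with Gstm1 at chr3:108012255-108017973, Gstm2 at chr3:107981702-107986453 and Gstm3 at chr3:107963696-107969283. Gsta1 (chr9:78230656-78242684) and Gsta2 (chr9:78331018-78355788) lie close together on chromosome 9, away from Gsta3 (chr1:21240589-21265661). Gstt3 is at chr10:75774115-75781414, Slc7a11 at chr3:49892526-50443614 and Hmox1 at chr8:75093621-75100589.

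The libraries held 2906411 to 10166959 counts, and the members took 0.882% to 1.65% of them. The deleted genes followed the labels in at least 1 gene in each sex and diet: the female libraries held 683 to 3530 counts of Cyp2b9 when WT and 2 to 8 when Cyp2b-null, the ND-fed males 33 to 97 and 1 to 9 counts of Cyp2b10, and the CDAHFD-fed males 118 to 364 and 2 to 7 counts of Cyp2b9. One library stood apart: CDAHFD-fed Cyp2b-null female replicate 3 had a mean correlation of 0.948 with its own group. In that library genes with under 1500 bases of exon were higher than genes with over 5000 bases by 0.96 (difference of the median log2 deviations), while the other libraries lay between -0.48 and 0.28. Diet and genotype calls that changed without it are given with and without it. Markers of several cell types moved with the diet. All 5 tested macrophage markers rose in all 4 diet comparisons (summed CPM 198 to 305 in ND-fed and 632 to 833 in CDAHFD-fed WT females, 76.8 to 161 and 493 to 1034 in WT males); Trem2 was listed at 0 in all groups. Of 6 stellate cell markers 5 rose in each comparison (WT females 195 to 286 on ND and 520.2 to 738 on CDAHFD), as did both tested neutrophil markers and 2 or 3 of 5 tested cholangiocyte markers. Of 6 hepatocyte markers 4 to 6 fell (WT females 124922 to 184517 and 72839 to 99825). Endothelial markers went both ways, with 0 to 3 of 6 higher and 0 to 3 lower, and 1 of 5 erythroid markers was higher in both female comparisons and 1 lower in both male ones. In males 1 T cell marker was tested and was not called, and of the 1 or 2 B cell markers tested 1 rose in Cyp2b-null males. The part of these shifts in the members' changes was not tested, and fewer cells of a type and less RNA per cell cannot be told apart.

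Both directions were found among the members on CDAHFD. A gene is said to have risen, fallen or been called where the edgeR quasi-likelihood test gave an adjusted p under 0.05 over all genes tested; levels are CPM, counts scaled to the library total with TMM factors over the 32 libraries, and fold changes come from the fits within each sex. A set of 8 rose in all 4 diet comparisons: the transferases Gsta1 and Gstm3, the cystine carrier Slc7a11, glutathione synthetase Gss, sulfiredoxin Srxn1, heme oxygenase Hmox1 and the peroxidases Gpx3 and Gpx7. A second set of 5 fell in all 4: Gsta3, Gstt3, Gstz1, Gsto1 and catalase. No member rose in one comparison and fell in another, 19 were called in 1 to 3 comparisons in a single direction, 7 were tested and called in none, and 6 had too few counts to be tested. In WT females 20 of 39 tested members were called, 9 higher and 11 lower, where 24.1% of all tested genes were called, 13.9% higher and 10.2% lower. In Cyp2b-null females the count was 21, with 14 higher and 7 lower (all genes 30.8%, 16.9% higher and 13.9% lower). WT males had 24, with 12 higher and 12 lower (33%, 18% and 15%), and Cyp2b-null males also had 24, with 12 and 12 (37.4%, 20.3% and 17.1%). The median log2 fold change over the tested members was 0.0085, 0.29, -0.044 and 0.056 in this order, and over all tested genes -0.0021, 0.027, -0.023 and -0.0083. The balance of directions depended on the scaling. Scaling by library size only, without TMM factors, moved the median of all genes up to 0.32, 0.28, 0.37 and 0.36. The median over the tested members was then 0.33, 0.52, 0.35 and 0.42. The called members split into 17 higher and 7 lower in WT females and 22 and 3 in Cyp2b-null females. WT males had 18 and 5, and Cyp2b-null males 19 and 9. Among the 5 that fell in all 4 comparisons, Gsta3, Gstt3 and catalase were called in all 4 under this scaling. Gsto1 was then not called in Cyp2b-null females, and Gstz1 was called in Cyp2b-null males only. The shares of all genes called under this scaling are not given here, so the split is not read as particular to the members. Without CDAHFD-fed Cyp2b-null female replicate 3 the Cyp2b-null females had 13 higher and 8 lower, where 28.3% of all genes were called. Of the 21 members 18 were shared: Gss, Gsta4 and Sod2 were lost and Gstt1, Nfe2l2 and Sod1 gained. The WT females, which share its estimate of spread, then had 23 called, 12 higher and 11 lower, where 29.7% of all genes were called, with Txnrd1, Nqo1 and Gpx1 gained.

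**Figure D1:**
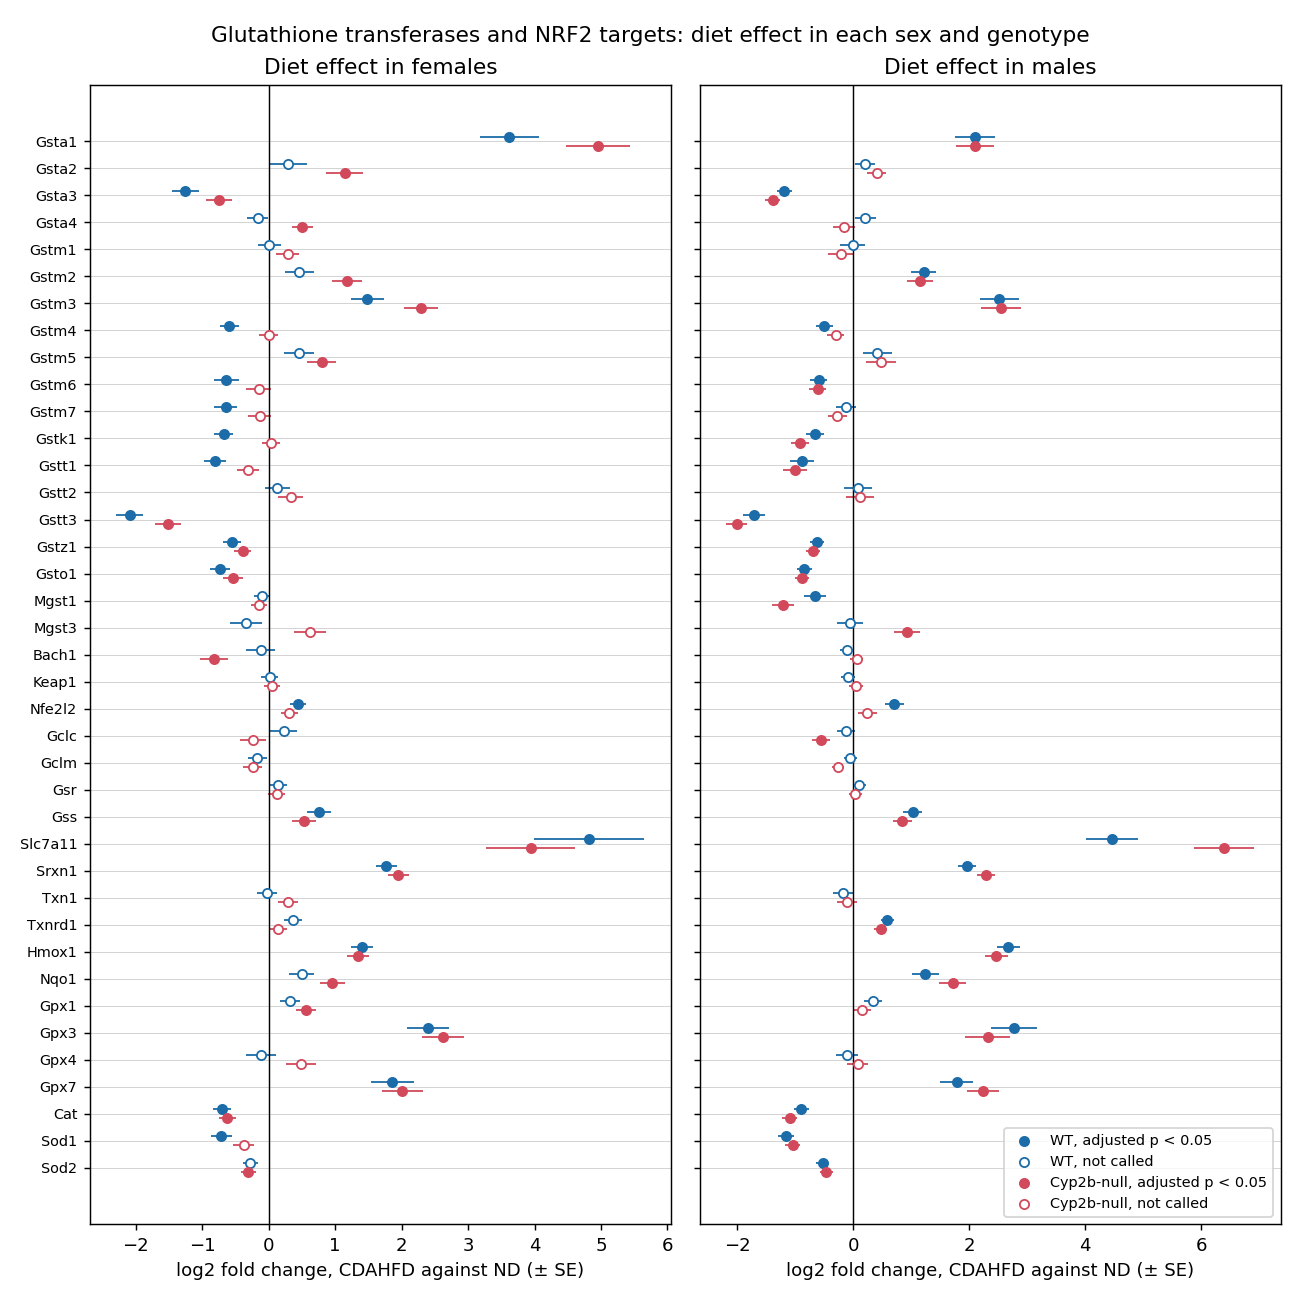
Log2 fold change of each of the 39 tested members on CDAHFD against ND (x axis, with SE) in females (left) and males (right), WT in blue and Cyp2b-null in red, filled where the adjusted p was under 0.05. Slc7a11, Gsta1, Gstm3, Gpx3, Gpx7, Srxn1, Hmox1 and Gss are filled and above 0 in all 4 comparisons, and Gstt3, Gsta3, Gstz1, Gsto1 and Cat are filled and below 0; the Slc7a11 values depend on a prior count because its ND counts were near 0.

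Within the alpha class, Gsta1 rose and Gsta3 fell in each comparison. Gsta1, an enzyme of electrophile and steroid metabolism that is weakly expressed in untreated liver, was measured at 0.994, 0, 1.68 and 2.76 CPM in ND-fed WT females and at 23.6, 24.3, 14.5 and 13.7 CPM on CDAHFD. The Cyp2b-null females had 1.51, 0.992, 1.15 and 0 CPM on ND against 15.3, 21.3, 34.6 and 26.9 CPM. In WT males Gsta1 was at 6.07, 4.14, 5.9 and 5.47 CPM and then 24.8, 33.5, 17.9 and 17.4 CPM, and in Cyp2b-null males at 3.89, 8.2, 4.43 and 8.86 and 29.8, 42.7, 19.2 and 12.5 CPM. No CDAHFD-fed library of either sex overlapped its ND-fed group. The log2 fold change was 3.62 ± 0.44 (adjusted p = 4.37e-06) in WT females, 4.96 ± 0.49 (adjusted p = 3.03e-07) in Cyp2b-null females, 2.10 ± 0.34 (adjusted p = 6.07e-05) in WT males and 2.10 ± 0.33 (adjusted p = 4.11e-05) in Cyp2b-null males, with SE after the ± sign here and below. The ND-fed females had only 0 to 16 counts, and 80.6% of the 100-base stretches of Gsta1 also occur in other genes, mostly Gm3776, so its level is uncertain.

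Gsta3, a major hepatic alpha transferase that detoxifies aflatoxin epoxide in mice, was abundant on ND and lower on CDAHFD. Its CPM in WT females was 1799, 1242, 1967 and 1794 on ND and 879.7, 805, 668 and 450.0 on CDAHFD, a log2 change of -1.25 ± 0.20 (adjusted p = 8.64e-05). In Cyp2b-null females Gsta3 had 1888, 1358, 1790.4 and 1110.1 CPM on ND and 819.8, 860.4, 1093 and 819 on CDAHFD, a change of -0.75 ± 0.20 (adjusted p = 0.00693); the value of 1093 belongs to the library that stood apart. Again the diets did not overlap. WT males gave 1922, 1522, 2070.4 and 1600.3 and 894, 740.3, 701 and 796 CPM, with a change of -1.18 ± 0.13 (adjusted p = 6.93e-07), and Cyp2b-null males 1659.9, 1801, 1961 and 1943 and 724, 779.8, 692 and 615 CPM, with a change of -1.39 ± 0.13 (adjusted p = 6.63e-08). Gsta2, a paralog that shares 28.4% of its 100-base stretches with other genes, was called in 1 comparison, Cyp2b-null females, where it went from 46.3, 54.5, 47.2 and 16.4 CPM to 79.2, 89.3, 101 and 83.6 CPM (1.14 ± 0.28, adjusted p = 0.00364); the difference of its diet effect between genotypes was not called (0.85 ± 0.39, adjusted p = 0.76). The WT females overlapped, at 38.8, 37.9, 54.9 and 60.3 CPM on ND and 69.4, 77.4, 53.6 and 33.3 CPM on CDAHFD. Gsta2 in males overlapped too: 41.2, 26.8, 40.3 and 42.2 and 38.5, 51, 39.2 and 44.7 CPM in WT, and 37, 31, 36.9 and 45.9 and 53.3, 58.9, 49.9 and 36.3 CPM in Cyp2b-null males. With scaling by library size only, Gsta2 was called in males of both genotypes. In Cyp2b-null males it was also called with no filter on low counts, without CDAHFD-fed replicate 4, and with only the groups compared. Gsta4, which conjugates the lipid peroxidation product 4-hydroxynonenal, was called higher in Cyp2b-null females (0.51 ± 0.16, adjusted p = 0.0197) but not without the library that stood apart (log2 change 0.37 ± 0.15, adjusted p = 0.065).

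The mu class split between Gstm3, which rose throughout, Gstm2, which rose in 3 of 4 comparisons, and Gstm1, the most abundant of the class, which was called in none. Gstm3 in WT females was at 46.1, 30.6, 62 and 64.3 CPM on ND and 119, 139, 119.6 and 182 on CDAHFD (1.48 ± 0.25, adjusted p = 1.29e-04). Cyp2b-null females had 39.6, 48.6, 36.9 and 30.6 CPM and 106, 179, 277 and 191 CPM of Gstm3 (2.30 ± 0.25, adjusted p = 1.16e-06). In males Gstm3 began lower, at 15.6, 10.8, 28.1 and 9.84 CPM in WT, and reached 77.4, 81.2, 96.2 and 121 CPM (2.52 ± 0.34, adjusted p = 6.77e-06). Cyp2b-null males gave 12.2, 22.6, 17.7 and 19.5 and 61.2, 169.6, 126 and 55.4 CPM (2.55 ± 0.34, adjusted p = 4.60e-06). The ND and CDAHFD libraries were separate in each of these. For Gstm2 the WT females overlapped, at 47.3, 41.7, 76.8 and 86.3 CPM on ND and 65.7, 77.2, 81.7 and 117 CPM on CDAHFD (0.46 ± 0.22, adjusted p = 0.142). The Cyp2b-null females did not, at 52.3, 54.3, 38.4 and 46.5 and 99.1, 98.4, 145 and 85.5 CPM (1.18 ± 0.22, adjusted p = 4.27e-04). Male Gstm2 went from 25.2, 16.4, 31.3 and 15.5 to 52.9, 48.1, 55.3 and 50.9 CPM in WT (1.22 ± 0.22, adjusted p = 1.82e-04) and from 17.8, 27.1, 25.9 and 30.4 to 40.4, 64.8, 72.3 and 43.3 CPM in Cyp2b-null males (1.16 ± 0.22, adjusted p = 2.35e-04).

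Gstm1 overlapped between diets in every comparison. In WT females Gstm1 had 1119.8, 1171, 1195 and 1212 CPM on ND and 1193, 1242, 1129 and 1082 on CDAHFD (0.01 ± 0.17, adjusted p = 0.981), and in Cyp2b-null females 1157, 1287, 1035 and 1089 and 964, 1178, 2132 and 1216 CPM (0.29 ± 0.17, adjusted p = 0.217; without replicate 3, 0.0047 ± 0.11, adjusted p = 0.982). In WT males it had 561, 337, 741 and 359.8 and 442, 406, 508 and 630.5 CPM, and in Cyp2b-null males 508, 693, 686 and 666 and 449, 720.1, 612 and 414 CPM. The value of 2132 CPM, the highest of Gstm1, was again the female library that stood apart. The other mu members moved less: Gstm4 fell in WT females (-0.59 ± 0.14, adjusted p = 0.00448) and WT males (-0.49 ± 0.15, adjusted p = 0.0137), Gstm6 fell in these and in Cyp2b-null males (-0.60 ± 0.15, adjusted p = 0.00247), Gstm7 fell in WT females (-0.65 ± 0.18, adjusted p = 0.00979), and Gstm5 rose in Cyp2b-null females (0.80 ± 0.22, adjusted p = 0.00819). With scaling by library size only, Gstm4, Gstm6 and Gstm7 were called in no diet comparison and Gstm5 in every one. That scaling also called Gstm1 in Cyp2b-null females.

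Transferases of the theta, zeta, omega and kappa classes were called lower or not at all in the main test. Gstt3 had the largest fall of all members. Its values in WT females were 114, 112, 156 and 188 CPM on ND and 33.7, 40.4, 29.3 and 28.9 CPM on CDAHFD (-2.09 ± 0.20, adjusted p = 2.67e-07), and in Cyp2b-null females 145, 106, 134 and 84.2 and 37, 50.6, 41.8 and 31.5 CPM (-1.51 ± 0.20, adjusted p = 1.00e-05). Males started lower: WT males had 40.5, 37.9, 46.9 and 50.1 CPM of Gstt3 on ND and 14.4, 11.9, 10.4 and 17 on CDAHFD (-1.71 ± 0.19, adjusted p = 4.91e-07), and Cyp2b-null males 44.2, 56.7, 66.2 and 56.3 and 13, 16.2, 16.1 and 8.82 (-2.00 ± 0.18, adjusted p = 3.50e-08). The diets did not overlap in any of the 4; 13.6% of the exon length is shared with Gm20441, whose reads cannot be told apart if strand was not used. Gstt2, which acts on aryl sulfates, was not called, but with scaling by library size only it was called in both female comparisons. Female Gstt2 was at 57.2, 66.6, 72.1 and 63.3 CPM on ND and 87.1, 73.9, 56.8 and 60.6 on CDAHFD in WT, and at 75.6, 103, 74.9 and 78.6 and 78.2, 91.2, 153 and 89.6 CPM in Cyp2b-null mice. Male Gstt2 was at 39, 31.3, 39 and 50.3 and 30.7, 25, 45.4 and 66.6 CPM in WT, and at 44.6, 30.5, 39.6 and 51.4 and 61.2, 38.1, 44.8 and 37.1 CPM in Cyp2b-null mice. Gstt1, an enzyme of dihalomethane metabolism, fell in WT females (-0.81 ± 0.16, adjusted p = 9.22e-04), WT males (-0.88 ± 0.20, adjusted p = 0.002) and Cyp2b-null males (mean 112 CPM against 224 CPM on ND, adjusted p = 0.000522), and without the library that stood apart also in Cyp2b-null females (log2 change -0.50 ± 0.14, adjusted p = 0.011). Gstz1, the maleylacetoacetate isomerase of tyrosine breakdown, fell by 0.39 to 0.68 and Gsto1 by 0.54 to 0.88 on the log2 scale over the 4 comparisons. With scaling by library size only, Gstt1 was not called in WT males and Gsto1 was not called in Cyp2b-null females. That scaling called Gstz1 in Cyp2b-null males only.

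Gstk1, the mitochondrial and peroxisomal kappa enzyme, and Mgst1, the abundant membrane transferase of the endoplasmic reticulum and mitochondria, fell in some comparisons. In WT females Gstk1 had 129, 112, 139 and 125 CPM on ND and 79.7, 87.1, 70.4 and 73.6 on CDAHFD (-0.68 ± 0.14, adjusted p = 0.00119). Cyp2b-null females overlapped, at 112, 104, 121 and 104 CPM and 101, 105, 149 and 89.5 CPM (0.03 ± 0.14, adjusted p = 0.876); without replicate 3, at 149 CPM, the change was -0.13 ± 0.11 (adjusted p = 0.434). WT males had 96.9, 82.4, 126 and 80.3 and 74.3, 51.2, 56.2 and 63.5 CPM of Gstk1 (-0.65 ± 0.15, adjusted p = 0.00248), and Cyp2b-null males 87.3, 123, 113 and 129.8 and 60.1, 63.7, 53.1 and 61.7 CPM (-0.92 ± 0.15, adjusted p = 7.33e-05). Female Mgst1 was not called, at 1957, 2209, 2426 and 1939 CPM on ND and 2054, 2018, 1889 and 1828 on CDAHFD in WT, and 2183, 2562, 2450.1 and 2165 and 2077, 2181, 2208 and 1849.8 CPM in Cyp2b-null mice. Mgst1 in WT males was at 2904, 1839, 2895 and 1931 and 1996, 1280.3, 1343 and 1439.8 CPM, which overlapped (-0.66 ± 0.19, adjusted p = 0.00923). In Cyp2b-null males it was at 2101, 2999, 3233 and 3465 and 1402, 1302, 1189 and 1215 CPM without overlap (-1.21 ± 0.19, adjusted p = 3.12e-05). The WT male calls of Gstk1 and Mgst1 were lost when libraries were scaled by size only (adjusted p = 0.171 and 0.198). Mgst3, which can also reduce lipid hydroperoxides, was called in Cyp2b-null males (0.93 ± 0.23, adjusted p = 0.00264), with overlapping libraries.

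**Figure D2:**
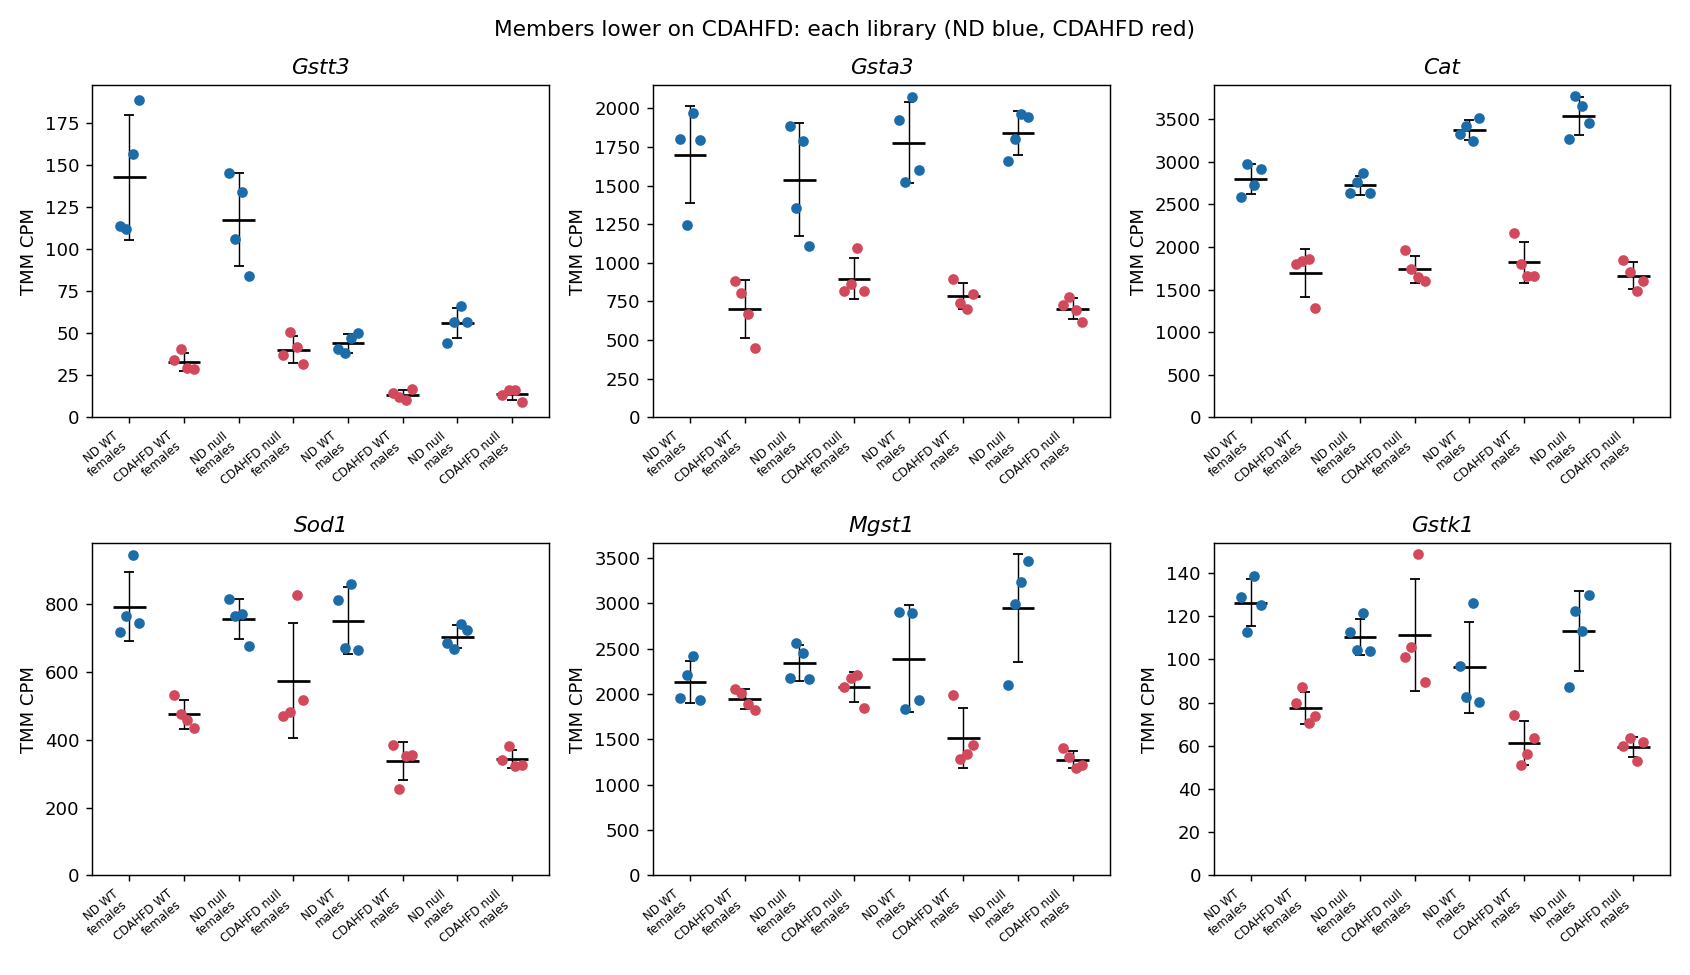
TMM-scaled CPM (y axis) of Gstt3, Gsta3, Cat, Sod1, Mgst1 and Gstk1 in each of the 4 libraries of the 8 groups, ND in blue and CDAHFD in red, with the group mean (bar) and SD (whiskers). The CDAHFD points of Gstt3, Gsta3 and Cat lie below the ND points in each sex and genotype, while 1 CDAHFD-fed Cyp2b-null female library is high for Sod1 (827 CPM) and Gstk1 (149 CPM).

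Of the regulators, Nfe2l2 was called in WT mice and Bach1 in Cyp2b-null females in the main test. Nfe2l2, which encodes NRF2, rose in WT mice of both sexes. It was at 61.4, 71.5, 79.5 and 63.4 CPM in ND-fed WT females and 98, 90.9, 95.1 and 83.6 CPM on CDAHFD (0.44 ± 0.12, adjusted p = 0.0101), and at 37.7, 37.6, 50.1 and 36.5 and 74.5, 63.1, 72.4 and 55 CPM in WT males (0.71 ± 0.16, adjusted p = 0.00204). In Cyp2b-null females Nfe2l2 went from 69.3, 70.6, 65.7 and 61.1 CPM to 77.2, 83.6, 73.9 and 90 CPM, without overlap but not called (0.31 ± 0.12, adjusted p = 0.0541); without CDAHFD-fed replicate 3 it was called (0.36 ± 0.11, adjusted p = 0.0207). Cyp2b-null males overlapped, at 51.5, 60.4, 36 and 57.2 and 55.1, 57.9, 76.6 and 51.3 CPM (0.24 ± 0.16, adjusted p = 0.262). Without a filter on low counts the WT female call was lost (adjusted p = 0.0813). With DESeq2 Nfe2l2 was also called in Cyp2b-null females, and with scaling by library size only it was called in all 4 diet comparisons, Cyp2b-null males included. The diet effect of Nfe2l2 was not shown to differ between genotypes (-0.13 ± 0.17 (adjusted p = 0.877) in females and -0.47 ± 0.23 (adjusted p = 0.822) in males, Cyp2b-null minus WT). Keap1, the repressor, was level throughout: WT females had 61, 65.8, 68.7 and 79.1 CPM on ND and 75.7, 59.5, 72.7 and 65.1 on CDAHFD, and Cyp2b-null females 75, 67.2, 71.4 and 63.2 and 66.2, 62.8, 79.1 and 72.4 CPM. Keap1 in WT males was at 69.9, 86.5, 79.3 and 107 and 84.2, 80.1, 84.3 and 71.4 CPM, and in Cyp2b-null males at 89.3, 76.3, 82.2 and 73.1 and 84.4, 85.5, 80.3 and 83.4 CPM. Its 4 log2 changes lay between -0.09 and 0.06, and the diets overlapped in each. With scaling by library size only, Keap1 was called in WT females and Cyp2b-null males.

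Bach1, the heme-binding repressor that competes with NRF2, was called in 1 diet comparison, that of Cyp2b-null females. There Bach1 fell from 63.8, 73, 76 and 57.2 CPM to 46.8, 39.2, 17 and 46.1 CPM (-0.83 ± 0.21, adjusted p = 0.0062). The lowest value, 17 CPM, was the library that stood apart; without it the change was -0.58 ± 0.13 (adjusted p = 0.00271). The diet effect of Bach1 was not shown to differ between genotypes in females (-0.71 ± 0.31, adjusted p = 0.76). The ND values of these females were the highest of the 4 female groups. WT females had 48.3, 39.4, 35.4 and 43.9 CPM of Bach1 on ND and 37.2, 42.5, 38.5 and 33.9 on CDAHFD, WT males 66, 56.3, 50.4 and 55.3 and 48.9, 55.2, 56.6 and 49.9, and Cyp2b-null males 62.7, 54.2, 53.9 and 59.8 and 64.9, 52, 57.5 and 67. With scaling by library size only, the fall in Cyp2b-null females was not called (adjusted p = 0.0787), while Bach1 was called in Cyp2b-null males.

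Among the genes of glutathione supply, cystine uptake and the last step of synthesis rose, while the rate-limiting ligase did not. Slc7a11, the cystine and glutamate exchanger of system xc-, was near 0 on ND: 0, 0, 1 and 0 counts in WT females, 1, 0, 1 and 1 in Cyp2b-null females, 0, 2, 2 and 2 in WT males and 1, 0, 1 and 0 in Cyp2b-null males. On CDAHFD Slc7a11 had 9, 14, 13 and 12 counts in WT females and 21, 20, 7 and 24 in Cyp2b-null females. The males had 22, 31, 64 and 34 counts in WT and 42, 89, 142 and 38 in Cyp2b-null. Scaled to CPM, the CDAHFD values of Slc7a11 were 1.97, 3.31, 2.59 and 1.87 in WT females, 5.28, 3.17, 1.25 and 2.9 in Cyp2b-null females, 4.17, 6.45, 7.48 and 6.03 in WT males and 6.76, 9.27, 11.8 and 7.79 in Cyp2b-null males. The ratio of the summed, depth-scaled counts was 39 in WT females (95% exact interval 6.67 to 1571, counting error only), 16.8 in Cyp2b-null females (5.53 to 83.4), 24.2 in WT males (10.9 to 67) and 107.7 in Cyp2b-null males (29.6 to 893). The adjusted p-values were 0.000187, 0.000143, 1.75e-07 and 7.03e-09. With only the groups compared, Slc7a11 did not pass the count filter in females and was not tested there. The intervals are wide because ND gave 1 to 6 counts in all per group, and the 4 intervals overlap.

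Gss, glutathione synthetase, rose in all 4. WT females had 99.8, 115, 71 and 61.7 CPM of Gss on ND and 152, 139, 132 and 151 on CDAHFD (0.75 ± 0.18, adjusted p = 0.00376), and Cyp2b-null females 111, 117, 90.2 and 124 and 130.3, 135, 206 and 159 (0.53 ± 0.18, adjusted p = 0.0268). The second call was lost without CDAHFD-fed Cyp2b-null female replicate 3, at 206 CPM (log2 change 0.39 ± 0.17, adjusted p = 0.095), and also without ND-fed Cyp2b-null female replicate 1 (0.53, adjusted p = 0.0551) or 3 (0.45, adjusted p = 0.09). In males Gss went from 93.4, 55.4, 98.9 and 79.6 to 171, 167, 171 and 157 CPM in WT (1.03 ± 0.16, adjusted p = 5.63e-05) and from 108, 95, 97.6 and 113 to 189.5, 247, 166 and 142 CPM in Cyp2b-null (0.85 ± 0.16, adjusted p = 2.98e-04); 15.4% of its exon length is shared with neighbouring genes. Gclc, the catalytic subunit of glutamate-cysteine ligase, was at 370.1, 256, 232 and 200.3 CPM in ND-fed and 327, 252, 371 and 267 CPM in CDAHFD-fed WT females, and at 303, 362, 303 and 316 and 279, 246, 179.7 and 363 CPM in Cyp2b-null females. In WT males it was at 319, 448, 348 and 393 and 363, 377, 395 and 252 CPM. These 3 pairs overlapped and were not called. Gclc fell in Cyp2b-null males from 457, 596, 387 and 489.8 to 314, 396, 294 and 306 CPM (-0.55 ± 0.16, adjusted p = 0.00827), a call lost with scaling by library size only (adjusted p = 0.347).

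Gclm, the modifier subunit of the same ligase, was called in no comparison of the main test. It was called in Cyp2b-null males with DESeq2 and in WT males with scaling by library size only. Its CPM was 208, 184, 157 and 179 on ND and 198, 149, 155 and 134 on CDAHFD in WT females, and 194, 209, 165 and 235 and 181, 168, 145 and 177 in Cyp2b-null females. In males Gclm was at 157, 152, 176 and 177 and 155, 146, 157 and 183 CPM in WT, and at 175, 198, 178 and 179 and 169, 140.3, 139.5 and 159 CPM in Cyp2b-null mice, the one pair without overlap (-0.26 ± 0.11, adjusted p = 0.0593). Gsr, glutathione reductase, changed by 0.04 to 0.14 on the log2 scale and was not called, but with scaling by library size only it was called in all 4.

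Srxn1 and Hmox1 rose without overlap in both sexes and genotypes. Srxn1, sulfiredoxin, which restores over-oxidized peroxiredoxins, had 39.8, 25.2, 34 and 30.5 CPM in ND-fed WT females and 109, 98, 100.5 and 129 CPM on CDAHFD (1.77 ± 0.16, adjusted p = 8.32e-08). The values in Cyp2b-null females were 34.5, 25, 35.7 and 30.1 and 107, 106, 118 and 141 CPM (1.95 ± 0.16, adjusted p = 2.07e-08). In WT males Srxn1 rose from 35.7, 50.5, 46.1 and 37.8 to 156, 192, 183 and 136 CPM (1.97 ± 0.15, adjusted p = 6.59e-09), and in Cyp2b-null males from 51.1, 45.8, 44.5 and 43.4 to 189, 293, 229.8 and 198 CPM (2.30 ± 0.16, adjusted p = 9.49e-10). The lowest CDAHFD value in any group, 98 CPM, lay above the highest ND value, 51.1 CPM. Txnrd1, thioredoxin reductase, rose in WT males (0.59 ± 0.11, adjusted p = 3.24e-04) and Cyp2b-null males (0.48 ± 0.11, adjusted p = 0.0018) and was not called in females (0.36 ± 0.14 (adjusted p = 0.0605) in WT and 0.14 ± 0.14 (adjusted p = 0.474) in Cyp2b-null), and the difference between the sexes was not called (0.25 ± 0.17 (adjusted p = 0.699) in WT and 0.37 ± 0.17 (adjusted p = 0.233) in Cyp2b-null). Txnrd1 in WT females was called without CDAHFD-fed Cyp2b-null female replicate 3 (0.36 ± 0.12, adjusted p = 0.0249), with DESeq2, with scaling by library size only and with only the groups compared. Txn1, thioredoxin itself, was not called. With scaling by library size only, Txn1 and Txnrd1 were both called in Cyp2b-null females.

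Hmox1, which breaks heme down to biliverdin, iron and carbon monoxide and is strongly expressed in macrophages that clear red cells, was at 27.6, 29.8, 16.5 and 20.9 CPM in ND-fed WT females and 67.2, 67, 53.2 and 59.8 CPM on CDAHFD (1.41 ± 0.16, adjusted p = 2.50e-06). Cyp2b-null females had 24.8, 24.6, 19.6 and 25.6 and 66.4, 51.2, 65.3 and 55 CPM (1.34 ± 0.16, adjusted p = 3.91e-06). In WT males Hmox1 began at 7.91, 7.94, 14.5 and 12.2 CPM and reached 51, 73.9, 74.1 and 74.2 CPM (2.67 ± 0.20, adjusted p = 3.56e-09), and in Cyp2b-null males the values were 11, 15.3, 12.9 and 9.75 and 62.5, 55.6, 81.8 and 68.9 CPM (2.47 ± 0.20, adjusted p = 5.93e-09). The CDAHFD libraries of the 4 groups thus held 51 to 81.8 CPM of Hmox1 and the ND libraries 7.91 to 29.8 CPM. The summed macrophage markers moved the same way, from 76.8 to 161 to 493 to 1034 CPM in WT males and from 88.4 to 105 to 675 to 1255 CPM in Cyp2b-null males, and their part in the rise was not tested.

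Nqo1, the quinone reductase that is a standard readout of NRF2, rose in 3 of 4 comparisons from a low level. In WT females Nqo1 had 13.3, 12.6, 19.5 and 11.9 CPM on ND and 17.9, 17.5, 17.9 and 24.7 on CDAHFD, which overlapped (0.49 ± 0.19, adjusted p = 0.0608). Nqo1 in WT females was called without CDAHFD-fed Cyp2b-null female replicate 3 (0.50 ± 0.18, adjusted p = 0.0391) and with scaling by library size only. Cyp2b-null females had 9.98, 10.9, 12.3 and 11.7 and 15.8, 23.5, 25.5 and 20.3 CPM (0.95 ± 0.19, adjusted p = 6.91e-04). WT males went from 6.99, 4.96, 6.45 and 6.78 to 12.1, 15.4, 15.1 and 16.9 CPM (1.25 ± 0.23, adjusted p = 2.45e-04) and Cyp2b-null males from 5.22, 2.51, 8.01 and 6.87 to 18.8, 21.9, 17.1 and 16.2 CPM (1.72 ± 0.23, adjusted p = 5.02e-06). The last 3 pairs did not overlap.

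**Figure D3:**
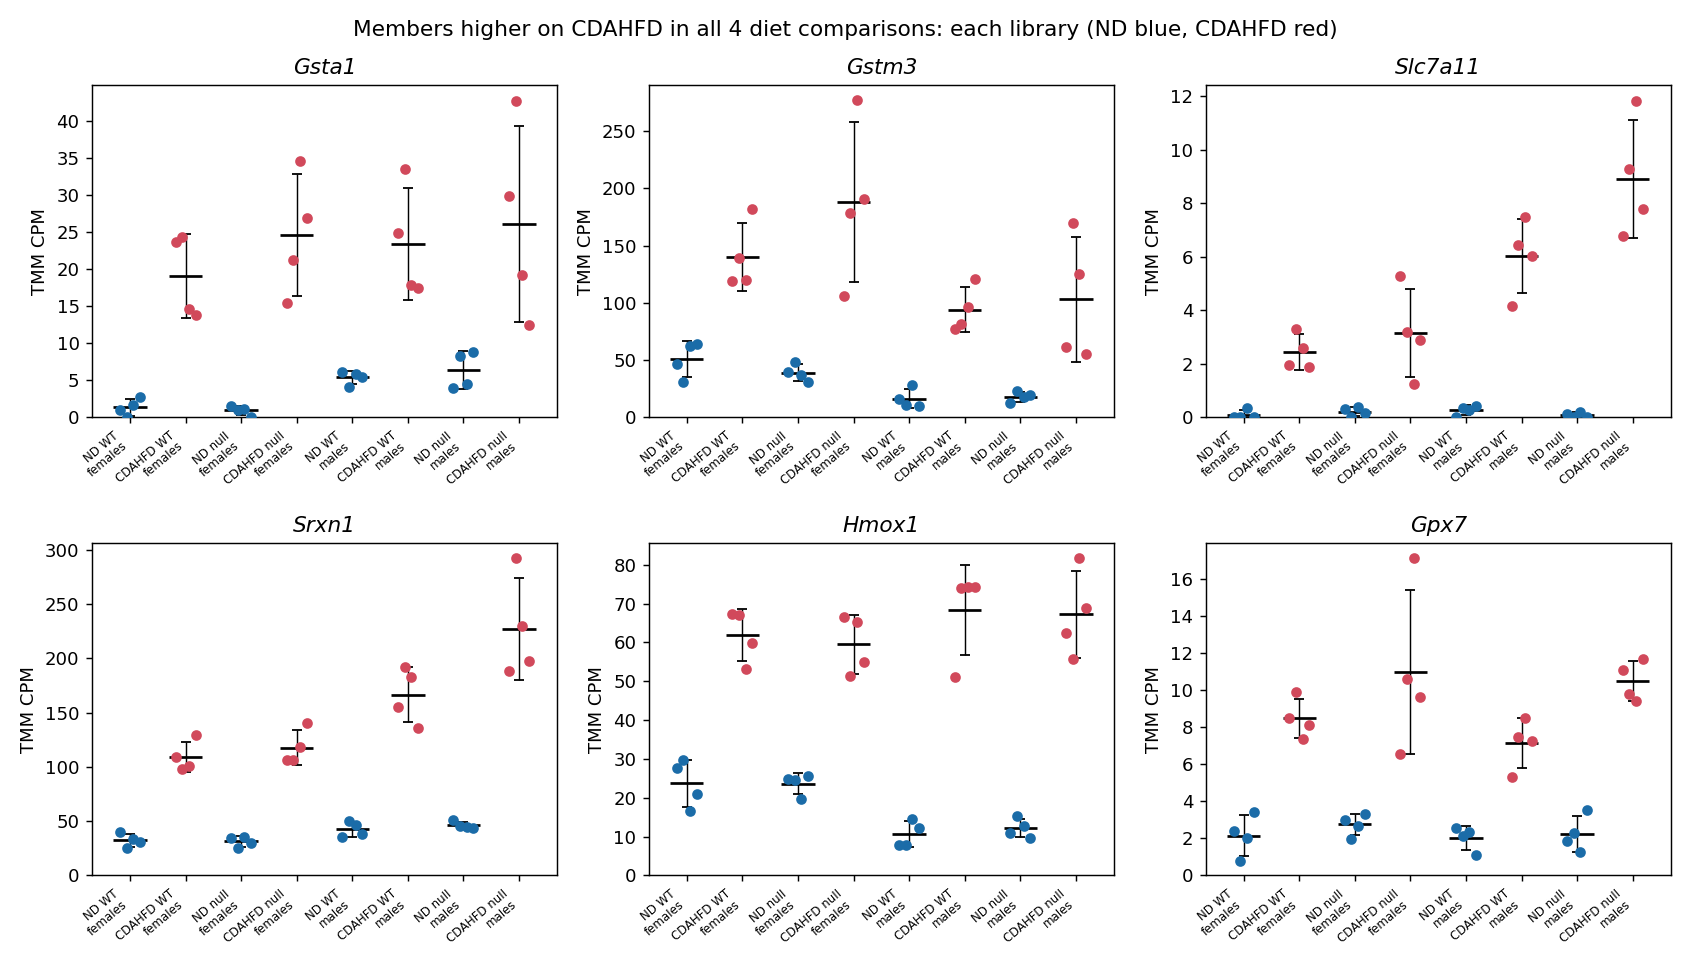
TMM-scaled CPM (y axis) of Gsta1, Gstm3, Slc7a11, Srxn1, Hmox1 and Gpx7 in each of the 4 libraries of the 8 groups, ND in blue and CDAHFD in red, with the group mean (bar) and SD (whiskers). Every CDAHFD point lies above the ND points of the same sex and genotype, and ND-fed males sit below ND-fed females for Gstm3 and Hmox1 and above them for Gsta1.

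The glutathione peroxidases rose or were not called. Gpx3, the secreted enzyme made mainly by kidney, was low on ND. Its values in WT females were 2.98, 4.21, 2.36 and 5.69 CPM on ND and 14.2, 16.8, 19.1 and 30.9 on CDAHFD (2.40 ± 0.31, adjusted p = 9.45e-06), and in Cyp2b-null females 2.12, 4.56, 3.46 and 3.35 and 12.6, 21.9, 29.1 and 19.8 CPM (2.62 ± 0.32, adjusted p = 3.67e-06). In WT males Gpx3 was at 4.78, 0.496, 2.47 and 1.53 and 11.4, 13.3, 21.2 and 17.6 CPM (2.78 ± 0.40, adjusted p = 1.49e-05), and in Cyp2b-null males at 1.45, 2.51, 4 and 6.2 and 15.6, 16.2, 18.3 and 16.4 CPM (2.32 ± 0.38, adjusted p = 5.73e-05). The rise exceeded the library spread in each. Gpx7, a peroxidase of the endoplasmic reticulum, had 2.39, 0.765, 2.02 and 3.45 CPM on ND and 8.53, 9.92, 7.37 and 8.12 on CDAHFD in WT females (1.86 ± 0.33, adjusted p = 2.30e-04), and 3.02, 1.98, 2.69 and 3.35 and 6.54, 10.6, 17.1 and 9.65 CPM in Cyp2b-null females (2.01 ± 0.31, adjusted p = 5.29e-05). Male Gpx7 was at 2.57, 2.15, 2.33 and 1.09 and 5.31, 7.49, 8.53 and 7.28 CPM in WT (1.79 ± 0.28, adjusted p = 4.77e-05) and 1.89, 2.28, 1.26 and 3.54 and 11.1, 9.79, 9.41 and 11.7 CPM in Cyp2b-null mice (2.24 ± 0.28, adjusted p = 1.77e-06). Summed stellate cell markers rose beside both, from 94.5 to 156 to 443 to 721 CPM in WT males, and their part was not tested. Gpx1, the abundant cytosolic peroxidase, was called higher in Cyp2b-null females (0.57 ± 0.15, adjusted p = 0.00734), and without CDAHFD-fed Cyp2b-null female replicate 3 also in WT females (0.33 ± 0.10, adjusted p = 0.0164). Gpx4, which reduces phospholipid hydroperoxides and shares 25.2% of its 100-base stretches with pseudogenes and other genes, was called in none. With scaling by library size only, Gpx4 was called in Cyp2b-null females and Gpx1 in every diet comparison.

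Catalase and both superoxide dismutases were called lower or not at all. Cat, the peroxisomal enzyme that splits hydrogen peroxide, had 2582, 2972, 2724 and 2914 CPM in ND-fed WT females and 1804, 1831, 1860.5 and 1280.1 on CDAHFD (-0.70 ± 0.13, adjusted p = 4.23e-04), and 2634, 2767, 2866 and 2638 and 1959, 1738, 1648 and 1606 CPM in Cyp2b-null females (-0.62 ± 0.13, adjusted p = 0.0011). In WT males Cat fell from 3331, 3425, 3243 and 3515 to 2169.5, 1794, 1659 and 1656 CPM (-0.89 ± 0.13, adjusted p = 1.35e-05), and in Cyp2b-null males from 3273, 3778, 3659 and 3459 to 1851, 1711, 1482 and 1599.5 CPM (-1.09 ± 0.13, adjusted p = 8.31e-07), without overlap in any pair. Sod1, the cytosolic copper and zinc dismutase, was at 719, 764, 946 and 745 CPM on ND and 532, 475, 459 and 435 on CDAHFD in WT females (-0.72 ± 0.16, adjusted p = 0.00186). Cyp2b-null females had 815, 764, 773 and 676 and 470.1, 482, 827 and 519 CPM and were not called (-0.38 ± 0.16, adjusted p = 0.0735). Without replicate 3, at 827 CPM, their change was -0.59 ± 0.12 (adjusted p = 0.000997), so that 1 library decided the call. Sod1 in WT males was at 812, 672, 859 and 666 and 386, 257, 352 and 355 CPM (-1.15 ± 0.13, adjusted p = 8.22e-07), and in Cyp2b-null males at 685, 668, 741 and 725 and 341, 381, 324 and 325 CPM (-1.04 ± 0.13, adjusted p = 2.37e-06). Sod2, the mitochondrial dismutase, fell in Cyp2b-null females, WT males and Cyp2b-null males, by 0.31, 0.53 and 0.46 on the log2 scale. Without CDAHFD-fed Cyp2b-null female replicate 3 the first was not called (adjusted p = 0.0575). With scaling by library size only, Sod2 was called in no diet comparison. Summed hepatocyte markers fell beside these genes, from 110594 to 125289 to 55905 to 99206 CPM in WT males, and their part was not tested.

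Of the 6 members that could not be tested, the highest count in any library was 2 for Gstt4, 6 for Gstp1, 1 for Gstp2, 4 for Gsto2, 6 for Mgst2 and 11 for Gpx2. Gstp1 is known as one of the most abundant transferases of mouse liver, above all in males, so these near-zero counts are not read as its level; 25.1% of the 100-base stretches of Gstp1 and 46.9% of those of Gstp2 also occur in other genes, and what the counting did with such reads is not stated. The 11 counts of Gpx2, the intestinal peroxidase, were in a CDAHFD-fed Cyp2b-null male library. Levels per kilobase were divided by the length of all annotated exons of a gene, which can exceed that of its main transcript. The order depends on this length: in ND-fed WT females Gsta3 had 4344 bases and 1700 CPM, and Gstm1 1473 bases and 1174 CPM. Per kilobase of exon, the highest mean levels in ND-fed WT females were those of Gpx1 (1473 CPM per kb), Cat (1071) and Mgst1 (1060.0), followed by Gstm1 (797) and Gsta3 (391). In ND-fed WT males the order was Cat (1293), Mgst1 (1188), Gpx1 (1029), Gsta3 (409.5) and Gstm1 (339). On CDAHFD Gpx1 led in WT mice of both sexes, at 1814 CPM per kb in females and 1311 in males. The spread between libraries is that of the CPM values above, and neighbours in these orders were not tested against each other.

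There were 68 other genes of glutathione breakdown and handling, redox control, NADPH supply, carbonyl reduction, conjugate export, heme handling and NRF2 partners. Of these, 65 were tested in females and 64 in males. WT females had 12 higher and 13 lower, Cyp2b-null females 17 and 10, WT males 17 and 15, and Cyp2b-null males 16 and 22. Called either way were 38.5%, 41.5%, 50% and 59.4% of those tested, beside 24.1%, 30.8%, 33% and 37.4% of all genes; the smaller groups named next are read against the same shares. Conjugate exporters were called higher in 2 or 3 of 5 and lower in 0 to 2. Genes of glutathione breakdown and handling were lower in 3, 3, 3 and 5 of 10 and higher in 0, 0, 1 and 1. Among them the glyoxalases Glo1 and Hagh, which do not break glutathione down, were each lower in all 4 comparisons. The breakdown enzymes went both ways, with Chac1 higher in 2 comparisons and Chac2 lower in 3. Among those called in all 4, the highest mean changes were those of carbonyl reductase Cbr3 (1.61 ± 0.51, 3.12 ± 0.55, 3.51 ± 0.49 and 3.91 ± 0.45, in WT females, Cyp2b-null females, WT males and Cyp2b-null males), the conjugate exporter Abcc1 (1.60 ± 0.31, 1.78 ± 0.30, 2.55 ± 0.31 and 3.89 ± 0.36) and the aldo-keto reductase Akr1b8 (1.31 ± 0.32, 0.93 ± 0.29, 2.10 ± 0.34 and 2.14 ± 0.33). The lowest were those of Me1, the NADPH-forming malic enzyme of fat synthesis (-2.64 ± 0.20, -2.81 ± 0.20, -2.98 ± 0.20 and -3.48 ± 0.21), the aldo-keto reductase Akr1c19 (-0.93 ± 0.27, -0.92 ± 0.26, -1.35 ± 0.18 and -1.46 ± 0.18) and glyoxalase Glo1 (-0.71 ± 0.15, -0.55 ± 0.15, -1.37 ± 0.11 and -1.61 ± 0.11). Cbr3 reached mean levels of 2.96 to 9.86 CPM on CDAHFD from 0.384 to 0.925 CPM on ND, and Me1 fell to 22.7 to 33.2 CPM from 210.0 to 255 CPM.

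No member was called between genotypes on either diet in either sex. Cyp2b-null and WT mice were compared to ask whether loss of the 3 enzymes changed these genes. On ND 0 of 39 members were called in females (0.0756% of all genes called) and 0 in males (0.0371%), and on CDAHFD 0 in females (0.0227%) and 0 in males (0.0297%). At an unadjusted p under 0.05 there were 2, 2, 6 and 2 members in that order. Over all genes the counts were 760 of 13226, 1112 of 13460, 771 of 13226 and 487 of 13460. With DESeq2 the count of members called was 0 in all 4. The difference of the diet effect between genotypes was also called for 0 members in females (0% of all genes) and 0 in males (0.00743%). At an unadjusted p under 0.05 there were 9 and 2 members, and over all genes 830 of 13226 and 817 of 13460.

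On ND, Bach1 was the member nearest a call in females: Cyp2b-null libraries had 63.8, 73, 76 and 57.2 CPM and WT libraries 48.3, 39.4, 35.4 and 43.9 CPM, which did not overlap (0.68 ± 0.22, adjusted p = 0.572). Without CDAHFD-fed Cyp2b-null female replicate 3, a library of neither group that adds to the estimate of spread, Bach1 was called (0.68 ± 0.12, adjusted p = 0.0311), and it was also called with no filter on low counts. Mgst3 was lower in ND-fed Cyp2b-null than WT mice in both sexes before adjustment, by -0.54 ± 0.25 (adjusted p = 0.841) in females and -0.74 ± 0.23 (adjusted p = 0.344) in males on the log2 scale, and with no filter it was called in males. Mgst3 had 22.4, 21.5, 24.4 and 28.7 CPM in ND-fed WT males and 17.3, 7.97, 17.3 and 14.4 CPM in Cyp2b-null males. On ND in males 31 of 39 members were above 0, with a median of 0.11, against 48.2% of all genes and a median of -0.011. Single libraries moved this by over 1.5 times: the count was 21 of 39 and the median 0.040 without ND-fed WT male replicate 2, 27 and 0.037 without ND-fed WT male replicate 4, 29 and 0.068 without ND-fed Cyp2b-null male replicate 2, and 25 and 0.062 without ND-fed Cyp2b-null male replicate 4, while without ND-fed WT male replicate 3 it was 31 and 0.17.

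On CDAHFD the Cyp2b-null females had 33 of 39 members above 0 and a median log2 difference of 0.27, where 48.9% of all genes were above 0 and their median was -0.0068. Without replicate 3 of these females the count was 30 of 39 and the median 0.11, a fall by over 1.5 times; leaving out any other library of the comparison gave medians of 0.22 to 0.32. The 6 members with an unadjusted p under 0.05 were Gstk1 (0.52, 95% interval 0.22 to 0.81), Gsta4 (0.51, 0.18 to 0.84), Gstt2 (0.57, 0.19 to 0.95), Gstt1 (0.39, 0.04 to 0.73), Txn1 (0.34, 0.03 to 0.65) and Gsta2 (0.60, 0.04 to 1.17), each with an adjusted p of 0.826. Without replicate 3 they were 0.36, 0.38, 0.33, 0.19, 0.14 and 0.55, and 3 members had an unadjusted p under 0.05. With all libraries 771 of 13226 genes had an unadjusted p under 0.05 in this comparison. The erythroid markers in the CDAHFD-fed Cyp2b-null females ranged from 215 to 849 summed CPM, against 217 to 346 in WT. In males on CDAHFD the members nearest a call were Srxn1 (0.45, 0.15 to 0.75) and Gpx7 (0.54, 0.04 to 1.03). The 95% interval of a member on CDAHFD had a median width of 0.71 in females and 0.68 in males on the log2 scale, so differences well inside it were not detectable with 4 libraries a group.

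**Figure D4:**
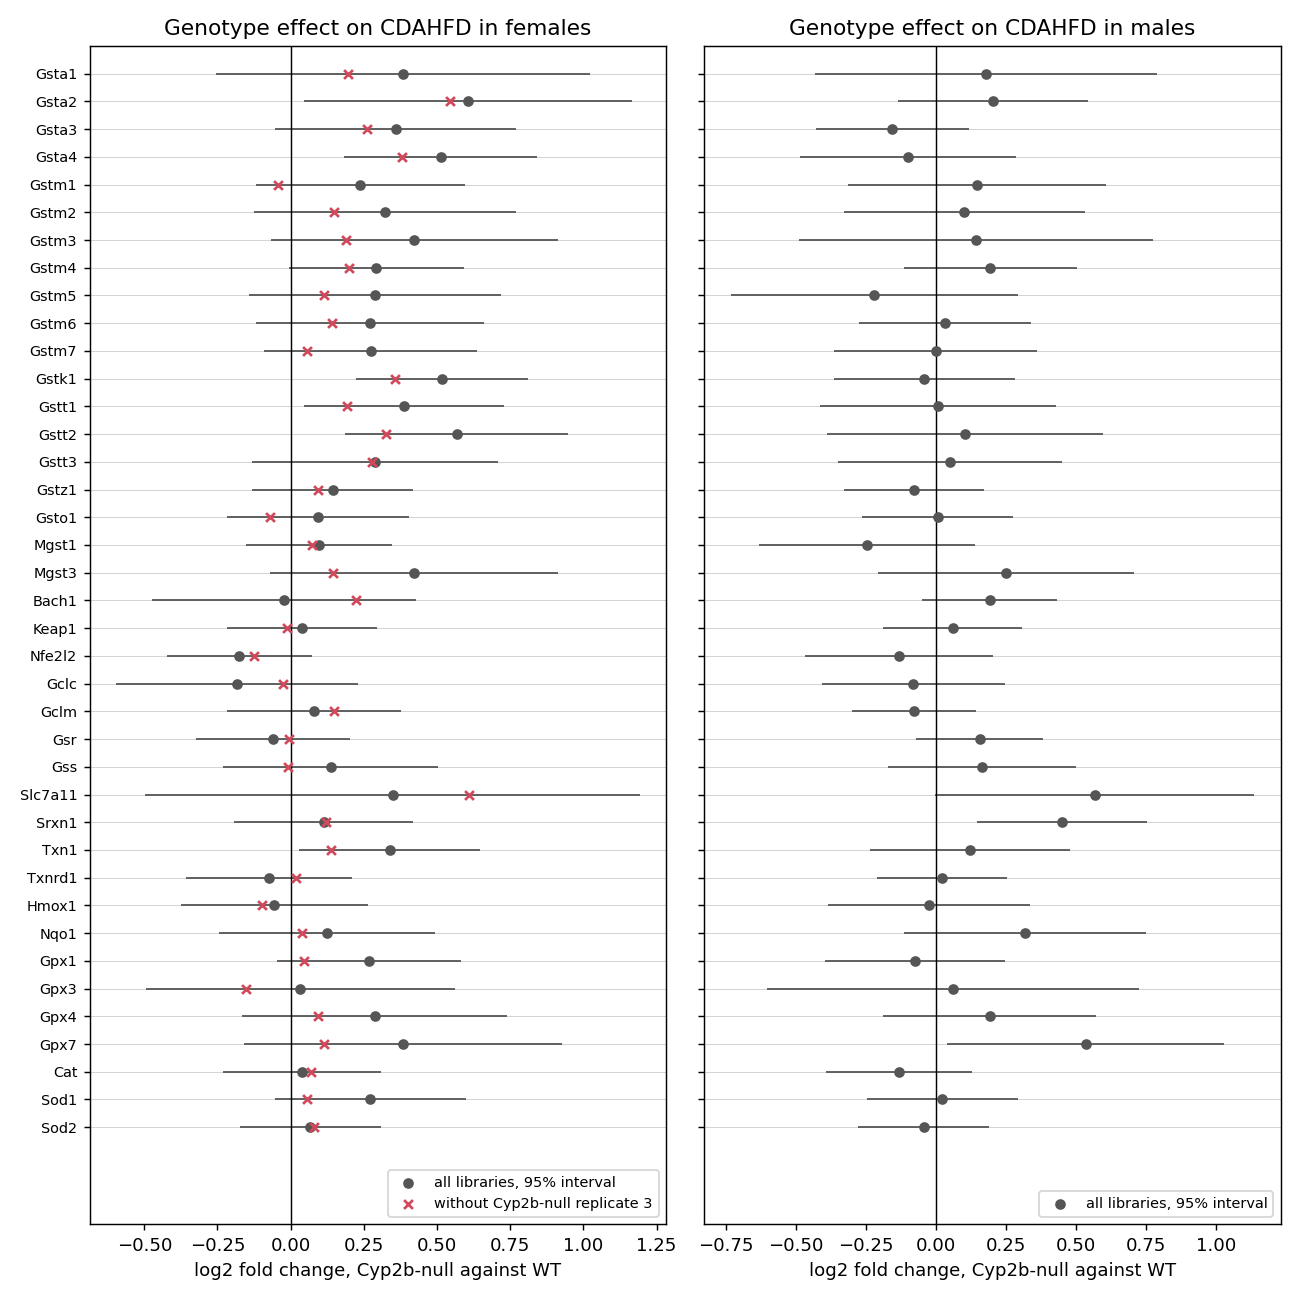
Log2 fold change of each tested member in Cyp2b-null against WT mice on CDAHFD (x axis) in females (left) and males (right), with 95% intervals over all libraries. The female points lie mostly to the right of 0 and move toward it without Cyp2b-null replicate 3 (crosses); no member was called in either sex.

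On ND the sexes differed in 3 theta transferases, in Hmox1, in Nqo1 and in a part of the mu class, where 4 of 7 members were called in WT mice and 3 of 7 in Cyp2b-null mice, each lower in males. In WT mice 14 of 39 members were called between males and females, 1 higher in males and 13 lower (17.8% of all genes called, 8.35% higher and 9.45% lower). In Cyp2b-null mice the count was 13, with 4 higher and 9 lower (13.3%, 6.13% and 7.13%). With scaling by library size only, the median of all genes moved from -0.034 to -0.10, and the Cyp2b-null split was 1 higher and 10 lower. Gclc, Srxn1 and Cat were then not called (adjusted p = 0.0881, 0.0608 and 0.142). The shares of all genes called under this scaling are not given here. Gstm1, Gstm2, Gstm3, Gstt1, Gstt2, Gstt3, Txn1, Hmox1 and Nqo1 were lower in males of both genotypes. Gstm1 was at 561, 337, 741 and 359.8 CPM in ND-fed WT males and 1119.8, 1171, 1195 and 1212 CPM in females, without overlap (log2 difference, males minus females, -1.23 ± 0.21 (adjusted p = 1.04e-04) in WT and -0.84 ± 0.21 (adjusted p = 0.00695) in Cyp2b-null). The values of 337 and 359.8 CPM belonged to ND-fed WT male replicates 2 and 4, where Gstm2 and Gstm3 were also lowest. In these libraries the deviation of short from long genes was -0.30 and -0.29, against 0.090 and 0.23 in replicates 1 and 3. The part of this shift in the sex differences was not tested. For Gstt3 the difference was -1.70 ± 0.19 (adjusted p = 7.35e-08) in WT and -1.07 ± 0.19 (adjusted p = 1.96e-04) in Cyp2b-null mice. Gstm3 differed by -1.64 ± 0.33 (adjusted p = 7.09e-04) and -1.13 ± 0.34 (adjusted p = 0.0211), Gstm2 by -1.51 ± 0.24 (adjusted p = 3.30e-05) and -0.94 ± 0.24 (adjusted p = 0.00786), and Nqo1 by -1.17 ± 0.22 (adjusted p = 3.29e-04) and -0.99 ± 0.23 (adjusted p = 0.00348). Gsta1 was higher in males, by 1.79 ± 0.53 (adjusted p = 0.0183) and 2.93 ± 0.61 (adjusted p = 0.00112). Nfe2l2 was lower in WT males (-0.76 ± 0.15, adjusted p = 3.95e-04), and in Cyp2b-null males the difference was not called (-0.38 ± 0.14, adjusted p = 0.0783). Gclc (0.59 ± 0.19, adjusted p = 0.0333), Srxn1 (0.58 ± 0.16, adjusted p = 0.0152) and Cat (0.38 ± 0.12, adjusted p = 0.0318) were higher in Cyp2b-null males. Some of these calls hung on single libraries. Gsta1 in WT was not called without ND-fed WT female replicate 1 (1.59, adjusted p = 0.065), and Gstt2 in WT was not called without any 1 of 6 of the 8 libraries (adjusted p up to 0.118). In Cyp2b-null mice Gstm3 and Srxn1 were each lost without ND-fed female replicate 2 or male replicate 1 (adjusted p up to 0.0868 and 0.0774), and Gclc and Cat without any 1 of 5 of the 8 libraries (up to 0.135 and 0.0918). The summed macrophage markers on ND were also lower in males, 76.8 to 161 CPM against 198 to 305 CPM in WT, and their part was not tested.

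The diet effect itself differed between the sexes for a few members. Hmox1 rose more in males, by 1.29 ± 0.26 (adjusted p = 0.00784) in WT (the 1 member called of 39, with 0.97% of all genes called, 0.67% higher and 0.3% lower) and by 1.15 ± 0.26 (adjusted p = 0.00986) in Cyp2b-null mice on the log2 scale. The macrophage markers also rose more in males, with 2 of 5 called in WT and 4 of 5 in Cyp2b-null mice, and their part in the Hmox1 difference was not tested. In Cyp2b-null mice 5 of 39 members were called (3.4% of all genes), 2 higher in males (2.09%) and 3 lower (1.31%). Gsta1 rose less in males (-2.84 ± 0.70, adjusted p = 0.0186), from a higher ND level; the call was lost without ND-fed Cyp2b-null female replicate 4 (-2.25, adjusted p = 0.071). The diet effect was lower in males for Mgst1 (-1.04 ± 0.22, adjusted p = 0.00659) and Gstk1 (-0.93 ± 0.21, adjusted p = 0.0107). For Bach1 the difference was 0.91 ± 0.25 (adjusted p = 0.0326), and it was not called without any 1 of 8 of the 16 libraries (adjusted p up to 0.0692). With only the libraries of the study's heat maps, which leave out 1 library of CDAHFD-fed Cyp2b-null females (replicate 3) and 1 of the males (replicate 4), 3 were called, namely Gstk1, Mgst1 and Hmox1. In WT mice the differences for Gstm3 (1.06 ± 0.44, adjusted p = 0.357), Nqo1 (0.78 ± 0.30, adjusted p = 0.277) and Mgst1 (-0.53 ± 0.22, adjusted p = 0.359) were not called.

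**Figure D5:**
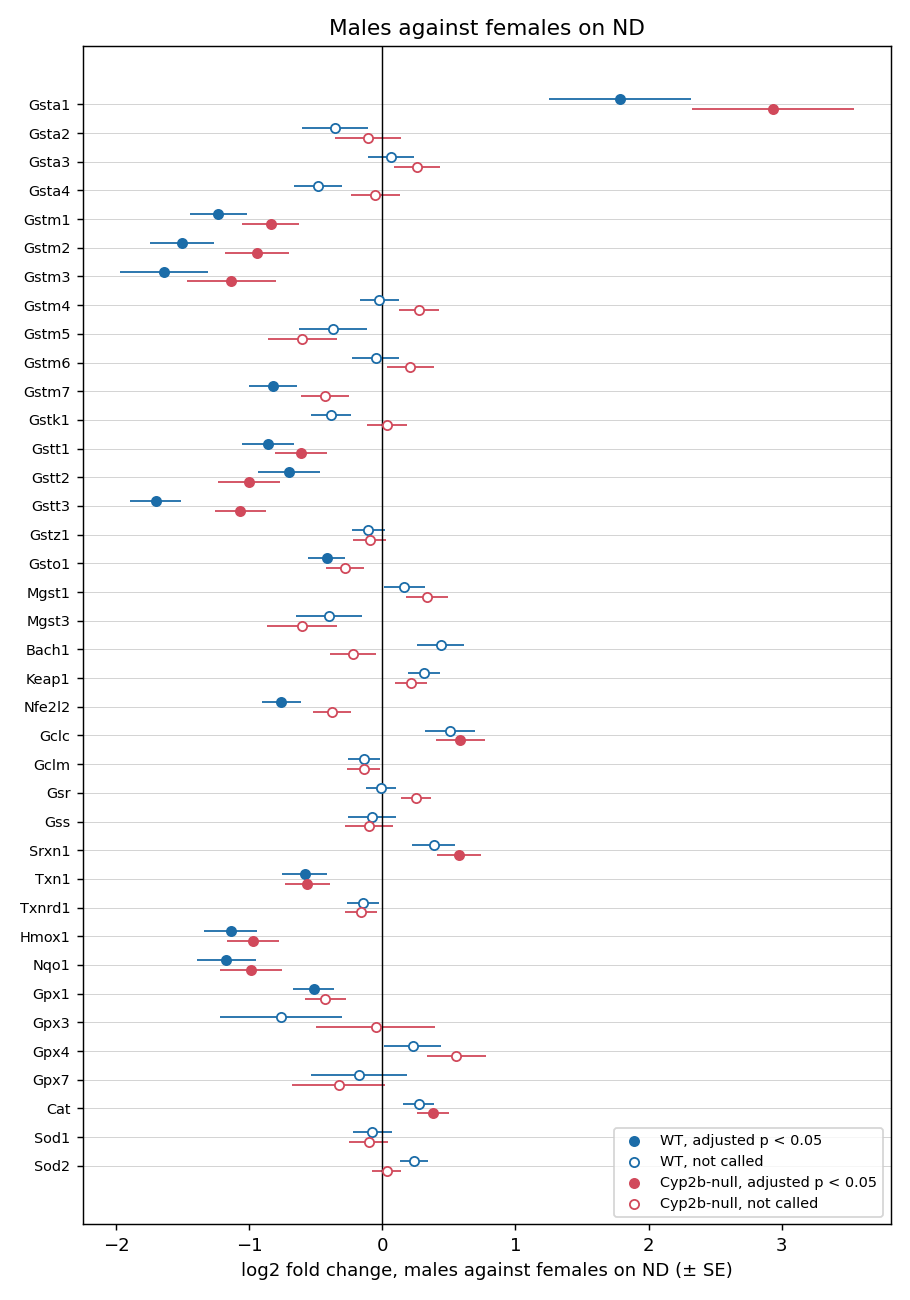
Log2 fold change of the tested members other than Slc7a11 in males against females on ND (x axis, with SE), WT in blue and Cyp2b-null in red, filled where the adjusted p was under 0.05. Gstm1, Gstm2, Gstm3, Gstt1, Gstt2, Gstt3, Txn1, Hmox1 and Nqo1 are filled and below 0 in both genotypes, and Gsta1 is filled and above 0.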

How the data were processed

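RNA from mouse liver was sequenced as paired reads in 32 libraries, 4 in each of 8 groups of diet, genotype and sex. The authors deposited raw counts per gene, 1 table for females and 1 for males; the submitters' processing notes name FastQC, Trimmomatic, GSNAP, Subread and edgeR with build GRCm38.p6, and settings for strand and for reads that map more than once are not given in the sources used here. The counts were used as deposited. Genes were filtered with filterByExpr (smallest count 10, smallest total 15), scaled with TMM factors and tested with the edgeR 4.0.16 quasi-likelihood test (R 4.3.3) across the 4 groups of each sex, or all 8 groups for differences between the sexes. P-values were adjusted by the Benjamini-Hochberg method over the 13226 (females), 13460 (males) or 14020 (both) genes tested, and called under 0.05. Tested on simulated data, the step recovered 61% of 2-fold and 90% of 4-fold changes in WT females, and 72% and 93% in WT males. It also called 7 unchanged genes in females and 5 in males. The simulation changed 100 genes at each fold, in both directions, far fewer than were called between diets. The rates therefore need not hold for the comparisons made here. The SE of a log2 fold change is its absolute value divided by the square root of the quasi-likelihood F statistic. The 95% intervals of fold changes were built from that SE with the t distribution, so both are approximate for genes with few counts. Depth was 2906411 to 10166959 counts, which leaves genes with few counts imprecise; intervals of count ratios cover counting error only.

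Every library value is given for members called with an absolute log2 change of at least 1 in a diet effect or between the sexes on ND, or called in a genotype effect or a difference of effects, and for Nfe2l2, Keap1, Bach1, Nqo1, Hmox1, Gclc and Gclm. Of the other pathway genes, the 3 highest and 3 lowest mean diet effects among those called in all 4 are named, with some genes of glutathione breakdown and handling. The members, the list of 68 pathway genes, the marker lists and the motifs were chosen with earlier results of these data known. Alternatives were DESeq2 1.42.0, RLE factors, library size only, other filters, the replicate block, the libraries of the heat maps, only the groups compared, and leaving out each library. Shared 100-base stretches and exon lengths came from the GENCODE annotation and transcripts.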

Additional observations from a re-analysis of the deposited data

Results flagged for a closer look

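Of 192 groups of 4 libraries looked at for the 24 members given in full, 11 held 1 library far from the other 3 by Dixon's test at its 95% limit, where chance gives about 1 in 20. In CDAHFD-fed Cyp2b-null females it was replicate 3 for Gsta3 (1090 CPM, others 819 to 860) and Sod1 (827 CPM, others 470 to 519). In CDAHFD-fed WT females it was replicate 4 for Nqo1 (24.7 CPM, others 17.5 to 17.9) and Cat (1280 CPM, others 1800 to 1860). The others were Gsta2 in ND-fed WT male replicate 2 (26.8 CPM), Gstm1 in ND-fed Cyp2b-null male replicate 1 (508 CPM), Gstt2 in ND-fed Cyp2b-null female replicate 2 (103 CPM), Nfe2l2 in ND-fed WT male replicate 3 (50.1 CPM), Slc7a11 in ND-fed WT female replicate 3 (0.337 CPM, 1 count against 0 in the other 3), Hmox1 in ND-fed Cyp2b-null female replicate 3 (19.6 CPM) and Hmox1 in CDAHFD-fed WT male replicate 1 (51 CPM).

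The diet effect differed between males and females, in the test of the difference itself, for Hmox1 in WT (1.29 on the log2 scale, males minus females, adjusted p = 0.00784) and in Cyp2b-null mice (1.15, adjusted p = 0.00986). In Cyp2b-null mice it also differed for Gsta1 (-2.84, adjusted p = 0.0186), Gstk1 (-0.93, adjusted p = 0.0107), Mgst1 (-1.04, adjusted p = 0.00659) and Bach1 (0.91, adjusted p = 0.0326). For Gsta1 the call was lost without ND-fed Cyp2b-null female replicate 4, and for Bach1 without any 1 of 8 of the 16 libraries.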

How the results depend on the processing

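The 4 counts of members called between diets stayed within 1.5 times of the main count under every alternative run, and so did the counts between males and females on ND. With no filter on low counts, 1 member was called between genotypes on ND in females (Bach1), 1 on ND in males (Mgst3) and 1 for the genotype difference of the diet effect in males (Mgst3), where the main count was 0, and 4 for the sex difference in WT mice (Gsta1, Gstm2, Gstm3 and Hmox1), where it was 1. With the libraries of the heat maps, 1 was called between genotypes on ND in females (Bach1) and 3 instead of 5 for the sex difference in Cyp2b-null mice; the cause was not tested. Leaving out each library of a comparison in turn gave 19 to 20 members called in WT females, 18 to 21 in Cyp2b-null females, 24 in WT males, 24 to 25 in Cyp2b-null males, 0 in all genotype comparisons, 10 to 16 and 9 to 13 between males and females on ND in WT and Cyp2b-null mice, and 1 and 4 to 5 for the sex difference. Of 89 called effects of the members given in full, 78 were called under every alternative that tested them. Of these, 75 were also called without each library, and 0 of the 89 changed direction. Slc7a11 in WT and Cyp2b-null females did not pass the filter with only the groups compared, so 7 alternatives tested it there. Replicate numbers did not pair the libraries: the correlation of same-numbered deviations passed 0.1 in 2 of 24 pairs in females and 3 of 24 in males. With the replicate block the counts were 20, 21, 24 and 24 for the diet effects, with 20, 20, 24 and 24 members shared, and 0 for every genotype comparison. Members with near-zero counts, above all Slc7a11 on ND and Gsta1 in ND-fed females, are limited by depth.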

Other observations

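The deviation of short from long genes also varied outside the library that stood apart. It ranged from -0.30 to 0.23 in ND-fed WT males and from -0.48 to -0.12 in CDAHFD-fed WT males, and from -0.011 to 0.28 and -0.039 to 0.11 in the WT females. Gstp1 had 0 counts in all 4 libraries of ND-fed WT females and 2 to 6 counts in those of ND-fed WT males.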
